A study of Mus musculus with 2 samples.

Results

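Hypoxic tumour cells are cancer cells that carry the transcripts of the response to low oxygen. They were examined here in single-cell RNA sequencing of Lewis lung carcinoma (LLC), a mouse tumour line that grew under the skin of mice. Membership went by the summed level of 4 genes in each cell: Car9, a carbonic anhydrase of the cell surface, Adm, which encodes the vessel-widening peptide adrenomedullin, Ndrg1, a stress-induced gene, and Ankrd37, a small ankyrin-repeat gene. Levels are counts of unique molecular identifiers (UMIs, counted RNA molecules) per 1000000 UMIs of a cell or group of cells (CPM). The members are the top 10% of tumour cells by this sum, ranked over both libraries together, and they numbered 747 of 7469 tumour cells and of 17864 deposited barcodes. Tumour cells were those with at least 300 genes, at most 20% mitochondrial UMIs, at least 5000 UMIs, a sum of at least 500 CPM for Wnt7b, Hmga2, Igf2bp1 and Igf2bp2, and a sum under 300 CPM for Ptprc, C1qa and C1qb. The first set holds genes of LLC cells, most of them active in embryonic tissue, and the last set marks macrophages and other leukocytes.

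The series held 2 libraries. The anti-PD-1 library came from a tumour model given anti-PD-1, an antibody that blocks the T cell checkpoint receptor PD-1, and the series text places its collection 7 days after treatment. The control library came from a model given an IgG2a isotype antibody by the sample labels, although the series text calls it untreated, and no time is given for it. Mouse strain, age, sex, antibody dose and the number of animals are not given in the sources used here. With 1 library a group there was no replicate and hence no test, and treatment cannot be told apart from animal, preparation or time of collection. Intervals are at 95% and cover counting error only; those of levels, ratios and shares are exact, and that of the difference between shares was built from Wilson score limits. The rule chose the cells by their RNA, so hypoxic against other tumour cells is a description throughout, and so is every gene ratio in it.

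Cells meet falling oxygen mainly through the hypoxia-inducible factors (HIFs). With oxygen, prolyl hydroxylases (the Egln genes) mark the HIF alpha subunits for destruction by the VHL complex. Without it, the alpha subunits accumulate, pair with ARNT and bind DNA near their target genes, often at the core letters ACGTG. These targets raise glucose uptake and glycolysis, lower mitochondrial oxygen use, attract vessels and modify collagen. In solid tumours such cells lie far from perfused vessels, and they are known for slow division and for resisting therapy.

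The promoter windows of 5 genes, from 250 bases before to 50 after the start in RefSeq (build GRCm38.p6), show how that core is placed in genes whose levels the results turn on. Capitals mark ACGTG on the gene's strand or CACGT, which is ACGTG read on the other strand; CACGTG holds both. Each line runs 5′ to 3′ on the gene's strand. The windows are chr4:43506776-43507075 (plus strand) for Car9, chr8:45999801-46000100 (minus strand) for Ankrd37, chr7:110627407-110627706 (plus strand) for Adm, chr7:138909457-138909756 (minus strand) for Bnip3 and chr4:119108495-119108794 (plus strand) for Slc2a1.
Car9: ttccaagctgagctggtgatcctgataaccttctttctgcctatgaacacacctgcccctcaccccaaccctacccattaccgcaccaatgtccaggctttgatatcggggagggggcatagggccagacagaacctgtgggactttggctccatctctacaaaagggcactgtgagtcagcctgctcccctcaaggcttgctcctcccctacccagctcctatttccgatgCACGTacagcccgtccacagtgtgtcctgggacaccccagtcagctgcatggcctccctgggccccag
Ankrd37: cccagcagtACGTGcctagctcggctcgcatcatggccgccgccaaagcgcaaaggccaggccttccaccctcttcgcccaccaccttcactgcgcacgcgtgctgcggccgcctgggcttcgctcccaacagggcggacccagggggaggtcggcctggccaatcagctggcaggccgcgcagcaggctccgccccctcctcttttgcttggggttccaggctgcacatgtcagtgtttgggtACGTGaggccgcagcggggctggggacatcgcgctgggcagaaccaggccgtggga
Adm: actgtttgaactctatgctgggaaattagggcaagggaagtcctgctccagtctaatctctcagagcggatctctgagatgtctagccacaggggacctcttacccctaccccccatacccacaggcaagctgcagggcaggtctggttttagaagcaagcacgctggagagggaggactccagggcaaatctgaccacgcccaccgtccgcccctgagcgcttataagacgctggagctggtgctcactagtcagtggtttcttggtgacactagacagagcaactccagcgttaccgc
Bnip3: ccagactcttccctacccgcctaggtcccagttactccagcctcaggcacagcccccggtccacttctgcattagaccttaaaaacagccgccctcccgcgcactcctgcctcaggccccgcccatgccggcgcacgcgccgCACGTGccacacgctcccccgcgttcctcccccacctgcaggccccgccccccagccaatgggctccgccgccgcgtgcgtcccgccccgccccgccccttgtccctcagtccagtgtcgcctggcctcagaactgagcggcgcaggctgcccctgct
Slc2a1: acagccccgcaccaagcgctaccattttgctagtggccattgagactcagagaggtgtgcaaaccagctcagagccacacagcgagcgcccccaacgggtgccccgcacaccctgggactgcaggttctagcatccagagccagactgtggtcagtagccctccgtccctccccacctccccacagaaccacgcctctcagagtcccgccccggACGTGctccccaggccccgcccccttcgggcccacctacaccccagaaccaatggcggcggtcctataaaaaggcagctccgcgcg
Car9 holds 1 match, Ankrd37 holds 2, Bnip3 holds 2 that overlap in a single palindrome, Slc2a1 holds 1, and these letters are not in the window of Adm. Ndrg1 had no entry. Of all windows in RefSeq's set here, 19.6% hold a match, and 30.6% of measured genes with an entry do (2470 of 8081), where a gene counts if any of its windows does and measured means at least 5 CPM over all tumour cells. Among the measured genes over 2-fold higher in hypoxic than in other tumour cells in both libraries, 41 of 84 with an entry did (48.8%). A match is a run of letters and not a measured binding site. Other forms of the site were not searched, so a window without these letters, as for Adm, can still hold one.

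The deposited libraries held 9423 barcodes with 115407230 UMIs for anti-PD-1 and 8441 barcodes with 113268618 UMIs for control. Hypoxic cells were somewhat shallower than the rest, with a median of 12050 UMIs in anti-PD-1, against 14494 in its other tumour cells, and 15900 in control hypoxic cells, against 17874 in its other tumour cells. No hypoxic barcode occurred as a hypoxic cell in both libraries, although the libraries share 107 barcodes in all. The LLC genes of the rule were at a median of 1322 CPM in anti-PD-1 hypoxic cells, against 1353 CPM in its other tumour cells, and at 1521 CPM in control hypoxic cells, against 1188 CPM in its other tumour cells. Macrophage markers summed to 290 CPM in hypoxic cells of each library and to 320 CPM in the other tumour cells of anti-PD-1 and 297 CPM in those of control, beside 13200 CPM in cells with leukocyte markers. Cells with leukocyte markers passed the same gene, mitochondrial and depth limits. They had at least 300 CPM of Ptprc, C1qa and C1qb and under 500 CPM of the LLC genes of the rule. All 10 macrophage markers were above 0. C1qa and C1qb are among them, so the contrast of these sums is in part fixed by the limits that chose the cells. Endothelial markers summed to 53.2 CPM in hypoxic cells and 60.9 CPM in other tumour cells of anti-PD-1, and to 102 CPM in hypoxic cells and 87.1 CPM in other tumour cells of control. Neutrophil markers summed to 37.8 CPM in hypoxic cells and 23.7 CPM in other tumour cells of anti-PD-1, and to 63.9 CPM in hypoxic cells and 41.6 CPM in other tumour cells of control, with Retnlg at 0 in anti-PD-1 hypoxic cells. Fibroblast markers stood out more, at 3612 CPM in hypoxic cells and 2485 CPM in other tumour cells of anti-PD-1, and at 1747 CPM in hypoxic cells and 1890 CPM in other tumour cells of control. The collagen genes Col1a1 and Col3a1 are among these markers, and Col3a1 alone made up most of each sum. Cells with at least 500 CPM of Dcn and Lum made up 13.3% of hypoxic cells in anti-PD-1 (9.94 to 17.2), against 6.23% of its other tumour cells, and 9.35% in control (6.64 to 12.7), against 7.16% of its other tumour cells. No doublet caller was run, and the part of such mixed or doublet cells was tested only by leaving these cells out.

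Hypoxic cells made up a smaller share of the tumour cells in the anti-PD-1 library than in the control library. The share was 7.92% in anti-PD-1 (362 of 4569 cells, exact Clopper-Pearson interval 7.16 to 8.74) and 13.3% in control (385 of 2900, 12.1 to 14.6). The difference, anti-PD-1 minus control, was -5.35 percentage points (-6.84 to -3.91). Thus the hypoxic cells of the libraries were nearly equal in number although anti-PD-1 held more tumour cells. The control tumour cells were deeper, and a cell with few UMIs more easily shows 0 marker UMIs: the marker sum was 0 in 25.7% of the other tumour cells of anti-PD-1 and in 14.4% of those of control. With every cell thinned to 5000 UMIs the difference was -5.18 points. Without the cells at 500 CPM of Dcn and Lum, a choice made after seeing the data, it was -5.81 points.

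Cells lay close together on both sides of the limit. The members nearest to the limit had 751.5, 753.9 and 754.7 CPM and the cells just outside it 751.3, 750.1 and 749.4 CPM. Within the members the median was 1760 CPM in anti-PD-1 and 1800 CPM in control, with maxima of 24668 CPM in anti-PD-1 and 18205 CPM in control. In the other tumour cells the medians were 104 CPM in anti-PD-1 and 131 CPM in control. Above 6000 CPM lay 62 anti-PD-1 and 45 control cells.

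**Figure D1:**
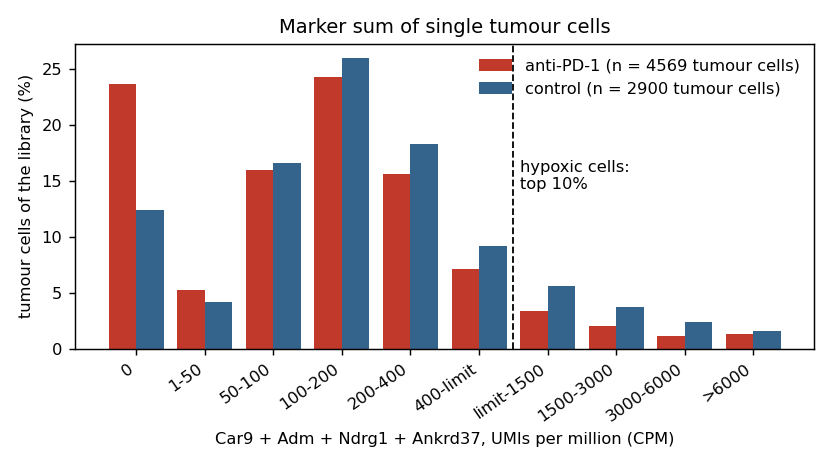
Share of each library's tumour cells (percent, vertical axis) by the summed CPM of Car9, Adm, Ndrg1 and Ankrd37 (horizontal axis, unequal classes), with anti-PD-1 in red left of control in blue. The dashed line is the limit for hypoxic cells, 751.5 CPM; the control bars are the taller ones in each class above it.

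The genes of the rule did not weigh equally. Adm led the sum in 286 of the 362 anti-PD-1 members (79.0%) and 318 of the 385 control members (82.6%), Ndrg1 in 68 of anti-PD-1 and 63 of control, and Car9 in 8 of anti-PD-1 and 4 of control. Adm stood at 2356 CPM in hypoxic cells and 62.2 CPM in other tumour cells of anti-PD-1, and at 1888 CPM in hypoxic cells and 67.8 CPM in other tumour cells of control. Ndrg1 stood at 913 CPM in hypoxic cells and 66.8 CPM in other tumour cells of anti-PD-1 and at 731 CPM in hypoxic cells and 84.2 CPM in other tumour cells of control. Car9 had fewer UMIs, with 137 CPM in hypoxic cells and 7.04 CPM in other tumour cells of anti-PD-1 and 129 CPM in hypoxic cells and 10.7 CPM in other tumour cells of control. Ankrd37 had the fewest UMIs and differed most between the libraries, with 30.7 CPM in hypoxic cells and 4.93 CPM in other tumour cells of anti-PD-1 and 67.9 CPM in hypoxic cells and 10.3 CPM in other tumour cells of control. When each gene was measured in cells chosen by the other 3 alone, its log2 ratio of hypoxic over other tumour cells in anti-PD-1 was 4.49 for Adm, 3.72 for Car9, 3.32 for Ndrg1 and 2.47 for Ankrd37. In control these log2 ratios were 3.89, 3.29, 2.85 and 2.64 for the same genes.

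Few cells carried every marker. UMIs of all 4 genes were found in 37 anti-PD-1 members (10.2%) and in 90 control members (23.4%), and UMIs of a single one in 47 of anti-PD-1 and 6 of control. Depth bears on these counts. At an equal 5000 UMIs a cell, Adm was seen in 91.2% of hypoxic cells and 24.4% of other tumour cells of anti-PD-1, and in 94.5% of hypoxic and 26.6% of other tumour cells of control; before thinning Adm was seen in 344 of 362 hypoxic cells and 49.1% of other tumour cells of anti-PD-1. In control it was then seen in 381 of 385 hypoxic cells and 58.5% of other tumour cells. The cells with leukocyte markers showed Adm in 24.9% (anti-PD-1) and 26.1% (control) after thinning. Those cells are not free of tumour transcripts, since Hmga2 was seen in 45.8% of them in anti-PD-1 and 48.0% in control, and the part of free RNA in these shares was not tested. Car9 was seen in 26.5% of thinned hypoxic cells and 2.31% of other tumour cells of anti-PD-1, and in 24.7% of hypoxic cells and 4.06% of other tumour cells of control. In the cells with leukocyte markers the share was 2.67% in anti-PD-1 and 4.22% in control.

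Over all genes, the 4 of the rule included, 193 of 10088 measured ones were over 2-fold higher in hypoxic than in other tumour cells of anti-PD-1 (1.91%) and 63 over 2-fold lower (0.625%). In control 142 were over 2-fold higher (1.41%) and 55 lower (0.545%). In both libraries 101 genes were over 2-fold higher (1.0%) and 14 lower (0.139%), the 4 rule genes among the higher ones. The median log2 ratio over all measured genes was -0.05 in anti-PD-1 and -0.03 in control. The list of hypoxia and glycolysis genes, which holds none of the rule genes, had 84 measured members of 100. Of these, 33 were over 2-fold higher in anti-PD-1 and 31 in control, with 27 in both and none over 2-fold lower in either. Its median log2 ratio was 0.75 in anti-PD-1 and 0.64 in control. Per cell, this list took a median of 22508 CPM in hypoxic cells and 12497 CPM in other tumour cells of anti-PD-1, and 23982 CPM in hypoxic cells and 14032 CPM in other tumour cells of control. The cells overlapped: 81.2% of the anti-PD-1 members and 86.2% of the control members lay above the 90th percentile of the other tumour cells of their library.

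**Figure D2:**
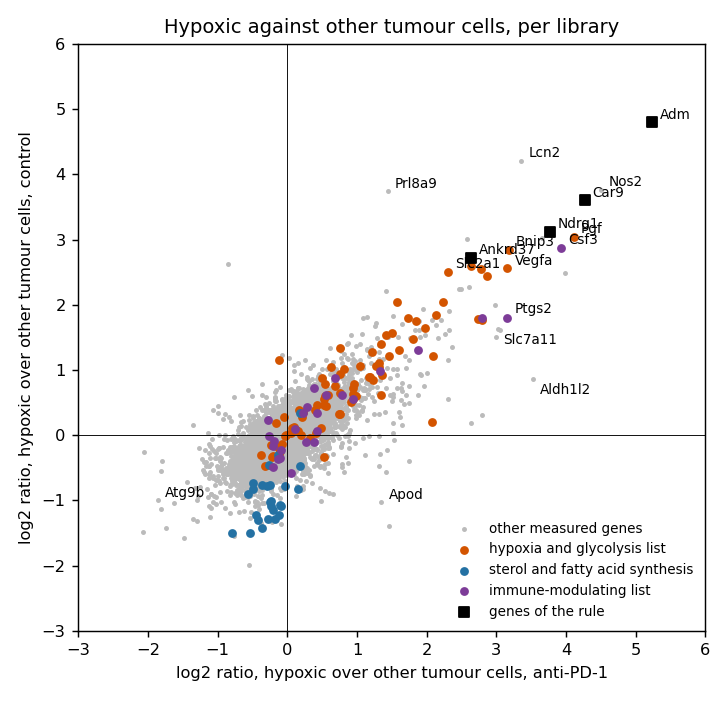
Each point is a measured gene, placed by its log2 ratio of hypoxic over other tumour cells in anti-PD-1 (horizontal) and control (vertical). Black squares are the genes of the rule, led by Adm at 5.24 in anti-PD-1 and 4.8 in control; hypoxia and glycolysis genes (orange) lie mostly to the upper right, and sterol and fatty acid genes (blue) lie lower in control than in anti-PD-1.

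The oxygen-sensing genes themselves were split. Egln3, a prolyl hydroxylase that HIF itself induces, stood at 257 CPM in hypoxic cells and 45.7 CPM in other tumour cells of anti-PD-1, and at 368 CPM in hypoxic cells and 77.9 CPM in other tumour cells of control (log2 ratios 2.49 in anti-PD-1 and 2.24 in control). Egln1, the main oxygen sensor, had log2 ratios of 0.95 in anti-PD-1 and 1.01 in control, while Egln2 was at -0.03 in anti-PD-1 and 0.12 in control. Hif1a, the alpha subunit that the hydroxylases mark, was at 71.6 CPM in hypoxic cells and 57.9 CPM in other tumour cells of anti-PD-1 and at 66.8 CPM in hypoxic cells and 53.6 CPM in other tumour cells of control. Its control by oxygen acts on the protein, which was not measured. Arnt was at a log2 ratio of 0.09 in anti-PD-1 and 0.32 in control, Vhl at 0.68 in anti-PD-1 and 0.60 in control. Hif1an, an asparagine hydroxylase that limits HIF activity, was at a log2 ratio of 0.42 in anti-PD-1 and 0.34 in control. Epas1, the other main alpha subunit, missed the level for a measured gene at 0.96 CPM in hypoxic cells and 0.919 CPM in other tumour cells of anti-PD-1, and 4.03 CPM in hypoxic cells and 2.96 CPM in other tumour cells of control. Hif3a was at 0 UMIs in all 4 groups.

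Genes of glucose uptake and glycolysis were higher along most of the path. Of 21 measured genes, 10 were over 2-fold higher in anti-PD-1 and 8 in control, and 19 lay above the median gene in both. Slc2a1, the glucose transporter GLUT1, stood at 1232 CPM in hypoxic cells and 251 CPM in other tumour cells of anti-PD-1, and at 1377 CPM in hypoxic cells and 242 CPM in other tumour cells of control (log2 ratios 2.3 in anti-PD-1 and 2.51 in control). Hk2, which traps glucose as its phosphate, was at a log2 ratio of 1.8 in anti-PD-1 and 1.48 in control, Pfkl, which commits it to glycolysis, at 1.61 in anti-PD-1 and 1.3 in control. Pgk1, which yields ATP, was at a log2 ratio of 1.28 in anti-PD-1 and 1.06 in control. Ldha, which turns pyruvate to lactate, had the most UMIs of these, at 2094 CPM in hypoxic cells and 1059 CPM in other tumour cells of anti-PD-1 and 2397 CPM in hypoxic cells and 1580 CPM in other tumour cells of control. Pdk1, which keeps pyruvate out of mitochondria, was at a log2 ratio of 1.98 in anti-PD-1 and 1.64 in control, and the lactate exporter Slc16a3 at 1.17 in anti-PD-1 and 0.89 in control. Of single genes that act on glycogen, the stored form of glucose, Gys1, glycogen synthase, was at a log2 ratio of 1.31 in anti-PD-1 and 1.11 in control. Pgm1, which links glucose to glycogen, was at a log2 ratio of 1.35 in anti-PD-1 and 1.40 in control. Slc2a3, another glucose transporter, was lower at a log2 ratio of -0.32 in anti-PD-1 and -0.47 in control, and Pfkm at -0.1 in anti-PD-1 and -0.25 in control. Of 6 measured pH and ion transporters, 4 lay above the median gene in anti-PD-1 and 3 in control (median log2 ratio 0.35 in anti-PD-1 and 0.11 in control). In either library 0 were past 2-fold, where 1.91% of all measured genes were higher in anti-PD-1 and 1.41% in control. Slc4a4 was at a log2 ratio of 0.95 in anti-PD-1 and 0.63 in control, and Slc4a7 at 0.54 in anti-PD-1 and 0.6 in control. The lactate and proton carrier Slc16a1 was at a log2 ratio of -0.23 in anti-PD-1 and -0.15 in control.

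Genes that act on mitochondria went in both directions. Bnip3, a mitophagy receptor that removes mitochondria, stood at 69.5 CPM in hypoxic cells and 7.69 CPM in other tumour cells of anti-PD-1, and at 91.4 CPM in hypoxic cells and 12.8 CPM in other tumour cells of control (log2 ratios 3.18 in anti-PD-1 and 2.84 in control). Fam162a, a mitochondrial protein of the hypoxia response, was at a log2 ratio of 1.85 in anti-PD-1 and 1.75 in control, and Higd1a, a partner of the respiratory chain, at 1.31 in anti-PD-1 and 1.04 in control. The related receptor Bnip3l had a log2 ratio of 1.19 in anti-PD-1 and 0.9 in control. Respiratory chain genes of the nucleus lay lower together by a small amount: 36 of 38 lay below the median gene in anti-PD-1 and 38 of 38 in control, with median log2 ratios of -0.2 in anti-PD-1 and -0.26 in control and none past 2-fold. Sdhb of complex II was at 148 CPM in hypoxic cells and 191 CPM in other tumour cells of anti-PD-1 and at 165 CPM in hypoxic cells and 222 CPM in other tumour cells of control. Of the 13 genes of the mitochondrial genome, 11 lay below the median gene in each library (medians -0.41 in anti-PD-1 and -0.47 in control). Of these, mt-Nd1 was at a log2 ratio of -0.69 in anti-PD-1 and -0.67 in control. The exceptions were mt-Co1, near 0 at a log2 ratio of -0.04 in anti-PD-1 and 0.13 in control, and mt-Nd6, at 0.75 in anti-PD-1 and 0.4 in control, which is the one coding gene on the other strand of that genome. Mitochondrial UMIs made up a median of 0.493% of hypoxic cells and 0.779% of other tumour cells of anti-PD-1, and 0.429% in hypoxic cells and 0.61% in other tumour cells of control. Ogdh, an enzyme of the citric acid cycle, was at a log2 ratio of -0.55 in anti-PD-1 and -0.56 in control.

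Vessel factors were among the steepest genes, and steeper in anti-PD-1. Vegfa, the main growth factor of vessels, stood at 265 CPM in hypoxic cells and 29.7 CPM in other tumour cells of anti-PD-1, and at 306 CPM in hypoxic cells and 51.8 CPM in other tumour cells of control (log2 ratios 3.16 in anti-PD-1 and 2.56 in control). Its relative Pgf, placental growth factor, stood at 63.3 CPM in hypoxic cells and 3.68 CPM in other tumour cells of anti-PD-1 and at 57.4 CPM in hypoxic cells and 6.96 CPM in other tumour cells of control (log2 ratios 4.11 in anti-PD-1 and 3.04 in control). Angptl4, a lipase inhibitor that also acts on vessels, was at a log2 ratio of 2.09 in anti-PD-1 and 1.21 in control. Vegfb was level, at a log2 ratio of -0.04 in anti-PD-1 and -0.02 in control. The 8 measured genes had a median log2 ratio of 2.08 in anti-PD-1 and 0.91 in control. For each of Vegfa, Pgf and Angptl4 the level in other tumour cells was lower in anti-PD-1 than in control, while in hypoxic cells the log2 ratios of anti-PD-1 over control were -0.21 for Vegfa, 0.14 for Pgf and 0.57 for Angptl4.

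Some enzymes that shape collagen were higher and others were not, and of 10 measured matrix enzymes 5 were over 2-fold higher in anti-PD-1 and 4 in control. P4ha1 and P4ha2, the catalytic subunits of collagen prolyl hydroxylase, had log2 ratios of 1.46 (P4ha1) and 2.23 (P4ha2) in anti-PD-1 and 1.21 (P4ha1) and 2.05 (P4ha2) in control. Their partner P4hb was at a log2 ratio of 0.19 in anti-PD-1 and 0.00 in control. Plod2, a lysyl hydroxylase, was at 811 CPM in hypoxic cells and 306 CPM in other tumour cells of anti-PD-1 and at 789 CPM in hypoxic cells and 274 CPM in other tumour cells of control. Its relatives Plod1 and Plod3 had log2 ratios between -0.16 and -0.08. Ero1a, which drives disulfide formation in the endoplasmic reticulum, was at a log2 ratio of 2.14 in anti-PD-1 and 1.84 in control. Collagen genes themselves differed between the libraries: 16 of 18 lay above the median gene in anti-PD-1 and 7 of 18 in control (median log2 ratio 0.39 in anti-PD-1 and -0.07 in control). Col3a1, which is also a fibroblast marker, was at 3008 CPM in hypoxic cells and 1983 CPM in other tumour cells of anti-PD-1 and at 1357 CPM in hypoxic cells and 1535 CPM in other tumour cells of control. The fibroblast sum was also higher in anti-PD-1 hypoxic cells, but Col3a1 makes up most of that sum, so it is largely the same measure. The part of fibroblast RNA in the collagen values was not tested. Col12a1, a collagen that sits on fibres, was higher in both, at a log2 ratio of 3.02 in anti-PD-1 and 1.63 in control.

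Of 14 regulators that HIF induces, 5 were over 2-fold higher in each library and most others leaned the same way by less. Bhlhe40, a repressor of the clock and of metabolism, stood at 227 CPM in hypoxic cells and 36.6 CPM in other tumour cells of anti-PD-1, and at 270 CPM in hypoxic cells and 44.5 CPM in other tumour cells of control (log2 ratios 2.63 in anti-PD-1 and 2.6 in control). Its relative Bhlhe41 was at a log2 ratio of 2.8 in anti-PD-1 and 1.77 in control. Mxi1, an antagonist of MYC, was at a log2 ratio of 1.5 in anti-PD-1 and 1.56 in control, and the histone demethylase Kdm3a at 1.73 in anti-PD-1 and 1.8 in control. Of the 14, 13 lay above the median gene in both libraries. Klf10 was the one that did not, at a log2 ratio of -0.16 in anti-PD-1 and 0.18 in control. Among growth and lipid genes, Hilpda, which blocks the breakdown of stored fat, was at a log2 ratio of 2.78 in anti-PD-1 and 2.55 in control, and Ddit4, an inhibitor of the growth kinase mTORC1, at 1.57 in anti-PD-1 and 2.04 in control. Hmox1, which degrades haem, was at 349 CPM in hypoxic cells and 47.8 CPM in other tumour cells of anti-PD-1 and at 387 CPM in hypoxic cells and 71.1 CPM in other tumour cells of control. Plin2, which coats fat droplets, was at a log2 ratio of 0.81 in anti-PD-1 and 1.02 in control.

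**Figure D3:**
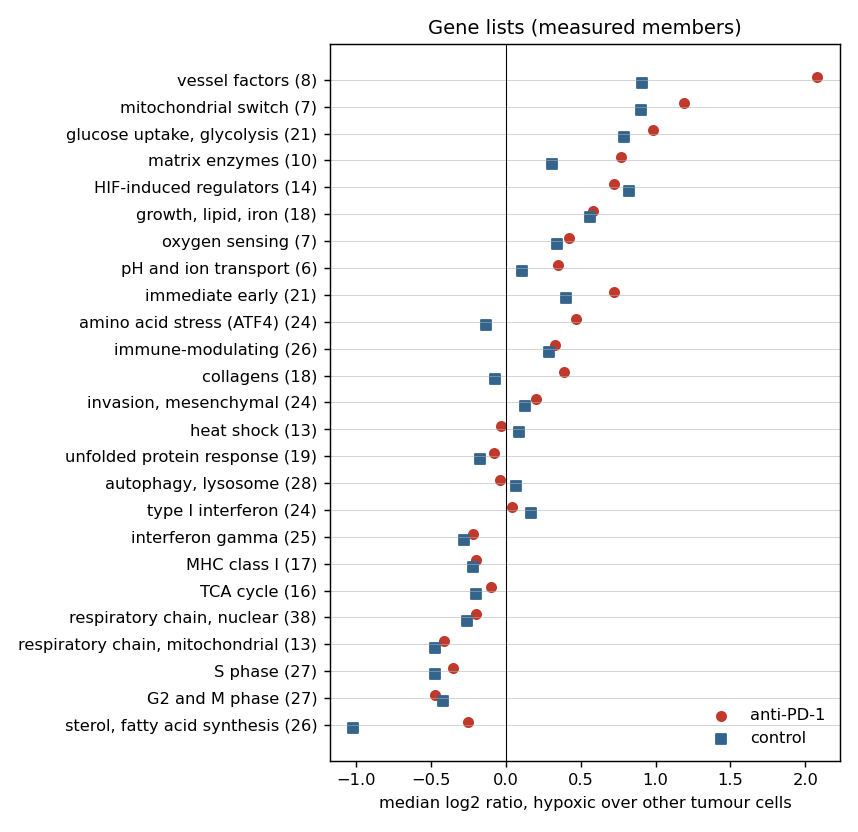
Median log2 ratio of hypoxic over other tumour cells (horizontal axis) for each gene list (vertical axis, number of measured members in brackets), in anti-PD-1 (red circles) and control (blue squares). Vessel factors lie highest in anti-PD-1 at 2.08, cell cycle and respiratory lists lie below 0 in both libraries, and the sterol list lies at -0.25 in anti-PD-1 and -1.02 in control.

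The genes with the highest ratios outside the rule included several with no place on the hypoxia list. Nos2, inducible nitric oxide synthase, stood at 253 CPM in hypoxic cells of each library, against 11.1 CPM in other tumour cells of anti-PD-1 and 18.6 CPM in those of control (log2 ratios 4.51 in anti-PD-1 and 3.76 in control). It was seen in 40.6% of hypoxic cells of anti-PD-1 and 44.2% of those of control, and cells with leukocyte markers had 0.11 times the level of the highest tumour group. Tnfrsf9, the co-stimulatory receptor 4-1BB best known from T cells, stood at 457 CPM in hypoxic cells and 36.4 CPM in other tumour cells of anti-PD-1 and at 480 CPM in hypoxic cells and 58.8 CPM in other tumour cells of control. It was seen in 64.9% of hypoxic cells of anti-PD-1 and 84.9% of those of control. T cell markers summed to 9.21 CPM in hypoxic cells of anti-PD-1 and 14.6 CPM in those of control, and to 6.42 CPM in other tumour cells of anti-PD-1 and 19.1 CPM in those of control. Sprr1a, a gene of cornified skin cells, was at a log2 ratio of 2.58 in anti-PD-1 and 3.01 in control, and Ciart, a clock repressor, at 2.61 in anti-PD-1 and 2.28 in control. Lcn2, an iron-binding secreted protein, reached a log2 ratio of 3.36 in anti-PD-1 and 4.21 in control, but 1 cell held 60.0% of its UMIs in anti-PD-1 hypoxic cells and 1 cell 63.6% in control, so its level is that of a few cells. Hspa1b, a heat shock chaperone, was seen in 6.35% of hypoxic cells of anti-PD-1 and 24.7% of those of control, and 1 cell held 37.7% of its UMIs in anti-PD-1 and 1 cell 15.9% in control.

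Secreted signals to immune cells were higher in part. Csf3, which mobilises neutrophils, stood at 47.4 CPM in hypoxic cells and 3.12 CPM in other tumour cells of anti-PD-1, and at 51.9 CPM in hypoxic cells and 7.09 CPM in other tumour cells of control (log2 ratios 3.93 in anti-PD-1 and 2.87 in control), in 10.8% of hypoxic cells of anti-PD-1 and 17.1% of those of control. In hypoxic cells, 1 cell held 21.5% of the Csf3 UMIs in anti-PD-1 and 1 cell 16.3% in control. Cxcl1, a neutrophil attractant, stood at 568 CPM in hypoxic cells and 81.9 CPM in other tumour cells of anti-PD-1, where 1 cell held 21.8% of its UMIs, and at 268 CPM in hypoxic cells and 77.5 CPM in other tumour cells of control. Ptgs2, which makes prostaglandins, stood at 747 CPM in hypoxic cells and 83.5 CPM in other tumour cells of anti-PD-1 and at 424 CPM in hypoxic cells and 123 CPM in other tumour cells of control (log2 ratios 3.16 in anti-PD-1 and 1.79 in control). Lif was at a log2 ratio of 1.88 in anti-PD-1 and 1.31 in control, and Pvr, a ligand of inhibitory and activating receptors of lymphocytes, at 1.33 in anti-PD-1 and 0.98 in control. The 26 measured genes of this list held 5 past 2-fold higher in anti-PD-1 and 4 in control, with median log2 ratios of 0.33 in anti-PD-1 and 0.29 in control. Cd274, which encodes PD-L1, was low and little different: 21.1 CPM in hypoxic cells and 15.7 CPM in other tumour cells of anti-PD-1 and 32.5 CPM in hypoxic cells and 31.3 CPM in other tumour cells of control. The neutrophil marker sums given above were higher in hypoxic cells of both libraries, and their part in these values was not tested.

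MHC class I and interferon gamma genes lay slightly lower, while type I interferon genes did not (median log2 ratio 0.04 in anti-PD-1 and 0.17 in control). Of 17 MHC class I genes, 15 lay below the median gene in anti-PD-1 and 13 in control (median log2 ratio -0.2 in anti-PD-1 and -0.22 in control), with none past 2-fold. B2m, the light chain of MHC class I, was at 658 CPM in hypoxic cells and 709 CPM in other tumour cells of anti-PD-1, and at 836 CPM in hypoxic cells and 801 CPM in other tumour cells of control, so it leaned in different directions by small amounts. Psmb10, a subunit of the immunoproteasome, was at a log2 ratio of -0.43 in anti-PD-1 and -0.83 in control. Tapbpl, which edits the peptides that MHC class I carries, was at a log2 ratio of -0.63 in anti-PD-1 and -0.55 in control. Of 25 interferon gamma genes, 21 lay below the median gene in anti-PD-1 and 20 in control, and 1, Gbp4, was over 2-fold lower in each. Gbp4, a GTPase induced by interferon, was at a log2 ratio of -1.06 in anti-PD-1 and -1.02 in control. Gbp5 was at a log2 ratio of -0.73 in anti-PD-1 and -0.57 in control and Ifi47 at -0.5 in anti-PD-1 and -0.75 in control. The median log2 ratios of both lists in anti-PD-1 were above 0 when the top 20% of cells were taken, at 0.01 for MHC class I and 0.1 for interferon gamma.

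Division genes were lower in hypoxic cells of both libraries, in nearly every member and by less than 2-fold. Of 27 genes of G2 and M phase, 27 lay below the median gene in anti-PD-1 and 26 in control (median log2 ratio -0.47 in anti-PD-1 and -0.42 in control). Of 27 S phase genes, 25 lay below it in anti-PD-1 and 27 in control (median log2 ratio -0.35 in anti-PD-1 and -0.47 in control). Mki67, the Ki-67 antigen of cycling cells, stood at 198 CPM in hypoxic cells and 294 CPM in other tumour cells of anti-PD-1, and at 206 CPM in hypoxic cells and 271 CPM in other tumour cells of control. Top2a, which untangles DNA, stood at 475 CPM in hypoxic cells and 622 CPM in other tumour cells of anti-PD-1 and at 554 CPM in hypoxic cells and 722 CPM in other tumour cells of control. At an equal 5000 UMIs a cell, Mki67 was seen in 45.6% of hypoxic cells and 63.0% of other tumour cells of anti-PD-1, and in 49.9% of hypoxic and 62.8% of other tumour cells of control. At full depth the shares were 67.1% in hypoxic cells and 82.6% in other tumour cells of anti-PD-1 and 74.5% in hypoxic cells and 86.3% in other tumour cells of control. Cells with leukocyte markers showed Mki67 in 37.6% (anti-PD-1) and 37.5% (control) after thinning. Among the lowest named genes was Cenpm, a centromere protein, at a log2 ratio of -0.83 in anti-PD-1 and -0.92 in control. The linker histone gene H1f1, also among them, was at -0.77 in anti-PD-1 and -1.03 in control. Dnajc9, a histone chaperone, was at a log2 ratio of -0.83 in anti-PD-1 and -0.78 in control.

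The lowest named genes otherwise came from scattered functions. Gchfr, which restrains the making of the nitric oxide synthase cofactor, stood at 16.9 CPM in hypoxic cells and 36.5 CPM in other tumour cells of anti-PD-1, and at 16.8 CPM in hypoxic cells and 39.9 CPM in other tumour cells of control (log2 ratios -1.11 in anti-PD-1 and -1.25 in control). Atg9b, a membrane carrier of autophagy, stood at 133 CPM in hypoxic cells and 482 CPM in other tumour cells of anti-PD-1 and at 120 CPM in hypoxic cells and 240 CPM in other tumour cells of control. Msln, the surface protein mesothelin, was at a log2 ratio of -1.09 in anti-PD-1 and -1.11 in control, Slc4a11, a membrane ion transporter, at -1.12 in anti-PD-1 and -1.09 in control. Apcdd1, a Wnt inhibitor, was at a log2 ratio of -1.33 in anti-PD-1 and -0.81 in control. Wnt7b, 1 of the 4 genes that chose the tumour cells, was also lower at a log2 ratio of -0.6 in anti-PD-1 and -0.51 in control. Igf2bp2, another of them, was higher at a log2 ratio of 1.05 in anti-PD-1 and 1.07 in control.

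The hypoxia and glycolysis list graded with the marker sum, while division genes did so less evenly. Tumour cells were ordered by the sum over both libraries and split at the 50th, 80th, 90th, 95th and 99th percentile. The hypoxia and glycolysis list summed to 12502 CPM in the lower 50% of cells in anti-PD-1 and to 13759 CPM in control, to 19252 CPM in anti-PD-1 and 21610 CPM in control between the 90th and 95th percentile, and to 37267 CPM in anti-PD-1 and 33812 CPM in control in the top 1%. It was already at 15719 CPM in anti-PD-1 and 17481 CPM in control in the class just below the limit. G2 and M phase genes summed to 4900 CPM in anti-PD-1 and 5463 CPM in control in the lower 50%, and to 1673 CPM in anti-PD-1 and 2311 CPM in control in the top 1%, which held 44 anti-PD-1 and 31 control cells. Across the limit they hardly changed. Just below it they summed to 3813 CPM in anti-PD-1 and 3896 CPM in control. Between the 95th and 99th percentile they summed to 3514 CPM in anti-PD-1 and 3821 CPM in control. Nuclear respiratory genes summed to 5137 CPM in anti-PD-1 and 6375 CPM in control in the lower 50% and to 3757 CPM in anti-PD-1 and 4400 CPM in control in the top 1%. Immediate early genes, which respond to stimulation within minutes, summed to 3645 CPM in anti-PD-1 and 5234 CPM in control at the bottom and to 17295 CPM in anti-PD-1 and 13751 CPM in control at the top. Myc alone stood at 3429 CPM in hypoxic cells and 1235 CPM in other tumour cells of anti-PD-1, and at 2821 CPM in hypoxic cells and 1850 CPM in other tumour cells of control.

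**Figure D4:**
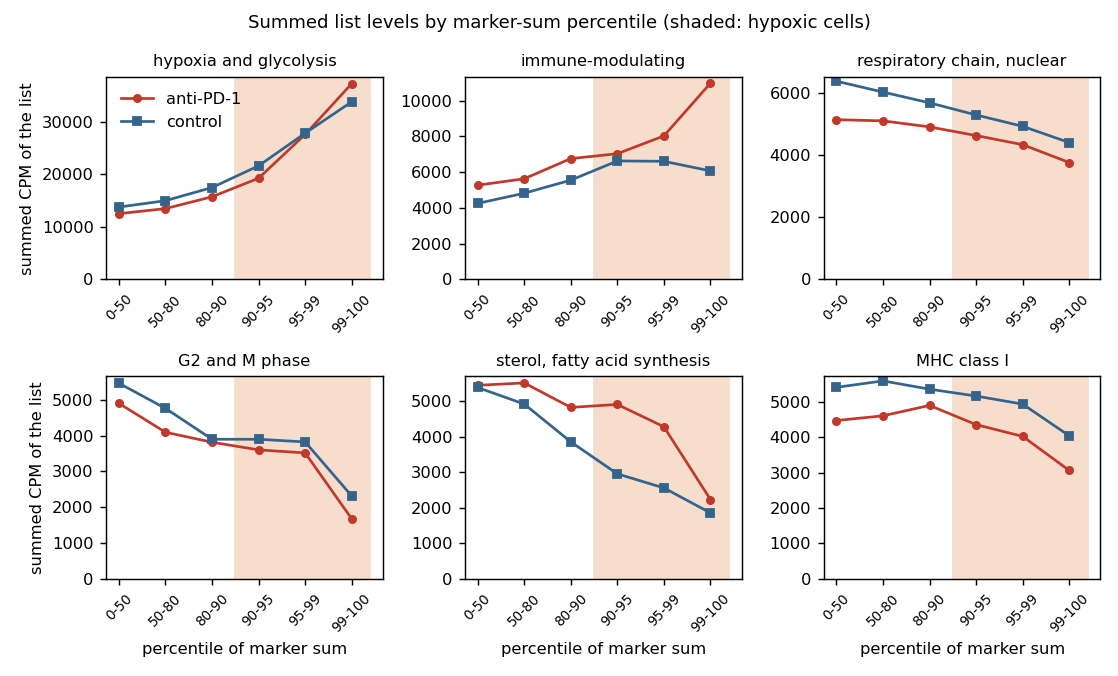
Summed CPM of 6 gene lists (vertical axes, from 0) in tumour cells by percentile of the marker sum (horizontal axis), with anti-PD-1 in red and control in blue; shading marks hypoxic cells. The hypoxia list climbs in both libraries, to 37267 CPM in anti-PD-1 and 33812 CPM in control, while division and respiratory genes decline, and the sterol lines lie farthest apart between the 90th and 95th percentile, at 4912 CPM in anti-PD-1 and 2954 CPM in control.

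Hypoxic cells led by Ndrg1 differed from those led by Adm. Grouped by the marker with the highest CPM in the cell, Mki67 had log2 ratios over other tumour cells of -1.33 in the 68 Ndrg1-led cells of anti-PD-1 and -1.57 in the 63 of control, and of -0.44 in the 286 Adm-led cells of anti-PD-1 and -0.27 in the 318 of control. The median log2 ratio over the G2 and M list was -1.06 in anti-PD-1 and -1.58 in control in Ndrg1-led cells and -0.41 in anti-PD-1 and -0.3 in control in Adm-led cells. Slc7a11, the cystine importer, was at a log2 ratio of 4.54 in anti-PD-1 and 3.04 in control in Ndrg1-led cells and at 2.22 in anti-PD-1 and 0.94 in control in Adm-led cells. Csf3 was at a log2 ratio of 5.27 in anti-PD-1 and 4.19 in control in Ndrg1-led cells and at 3.32 in anti-PD-1 and 2.45 in control in Adm-led cells. Its values rest on few cells, since 39 hypoxic cells of anti-PD-1 and 66 of control showed it. Vegfa was nearly equal, with 3.15 in anti-PD-1 and 2.69 in control in Ndrg1-led and 3.17 in anti-PD-1 and 2.55 in control in Adm-led cells. Median depth in anti-PD-1 was 11190 UMIs in Ndrg1-led and 12224 UMIs in Adm-led cells, and in control 15354 UMIs in Ndrg1-led and 16120 UMIs in Adm-led cells. The Car9-led cells, 8 in anti-PD-1 and 4 in control, were too few to describe.

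Hypoxic cells were set beside other high-scoring tumour cells. For each of 5 gene sets the top 10% of tumour cells were taken in the same way. The mitotic top 10% held 4.7% of hypoxic cells (2.76 to 7.41) and 10.4% of other tumour cells of anti-PD-1, and 6.75% of hypoxic (4.46 to 9.74) and 10.6% of other tumour cells of control. The top 10% by Gria3, a glutamate receptor, and Gpnmb, a lysosomal glycoprotein, held 4.97% of hypoxic cells and 14.0% of other tumour cells of anti-PD-1, and 5.45% of hypoxic cells and 4.65% of other tumour cells of control. The top 10% by Il24, a cytokine, and Msln held 2.76% of hypoxic cells and 4.78% of other tumour cells of anti-PD-1 and 11.7% of hypoxic cells and 19.5% of other tumour cells of control. The interferon top 10% held 5.25% of hypoxic cells and 5.09% of other tumour cells of anti-PD-1 and 12.5% of hypoxic cells and 18.5% of other tumour cells of control. The top 10% by Dkk2, a Wnt inhibitor, and Col8a1, a collagen, held 10.8% of hypoxic cells and 15.5% of other tumour cells of anti-PD-1 and 1.3% of hypoxic cells and 1.99% of other tumour cells of control. Msln is itself among the lowest genes of hypoxic cells, so that overlap is in part the same measure.

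The libraries were then compared within hypoxic cells. Of 10088 measured genes, 61 were over 2-fold higher in anti-PD-1 than in control hypoxic cells (0.605%) and 86 over 2-fold lower (0.852%). In other tumour cells 41 were higher (0.406%) and 95 lower (0.942%). The hypoxia and glycolysis list was level between the libraries in hypoxic cells, with a median log2 ratio of anti-PD-1 over control of 0.02, and at -0.17 in other tumour cells. Vegfa was at -0.21 in hypoxic cells and -0.8 in the others, Ldha at -0.2 in hypoxic cells and -0.58 in the others, and Slc2a1 at -0.16 in hypoxic cells and 0.05 in the others. The list median in hypoxic cells was -0.18 when the top 10% were taken within each library, which admits lower-scoring cells of anti-PD-1. In the main choice the hypoxic cells of both libraries passed a common limit of the marker sum, with which this list graded. Similar list levels in them are therefore in part set by the rule.

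Sterol and fatty acid synthesis genes formed a list in which hypoxic cells of the libraries differed while other tumour cells hardly did. In anti-PD-1 none of 26 was over 2-fold lower in hypoxic than in other tumour cells, and 22 lay below the median gene; the median log2 ratio was -0.25. In control, 14 of 26 were over 2-fold lower and 25 lay below the median gene; the median log2 ratio was -1.02. Between the libraries, 26 of 26 lay above the median gene in anti-PD-1 hypoxic cells with a median log2 ratio of 0.81, 6 of them over 2-fold, against a median of 0.07 in other tumour cells with 0 over 2-fold. Cyp51, which removes a methyl group from lanosterol, stood at 158 CPM in hypoxic cells and 205 CPM in other tumour cells of anti-PD-1 and at 73.1 CPM in hypoxic cells and 195 CPM in other tumour cells of control. Srebf2, the regulator that turns on this pathway, was at a log2 ratio of -0.29 in anti-PD-1 and -0.78 in control, and Srebf1, its relative for fatty acids, at 0.18 in anti-PD-1 and 0.34 in control. Acly and Acaca, which supply and commit carbon for fatty acids, differed less between the libraries, with log2 ratios of -0.14 (Acly) and -0.26 (Acaca) in anti-PD-1 and -0.3 (Acly) and -0.46 (Acaca) in control. The desaturase Fads2 is on no list here and was named for its high ratio of anti-PD-1 over control in hypoxic cells, so it adds no separate support. It stood at 108 CPM in hypoxic cells and 141 CPM in other tumour cells of anti-PD-1. In control it stood at 42.7 CPM in hypoxic cells and 109 CPM in other tumour cells. The median log2 ratio of the list stayed below 0 under all 19 alternatives, between -0.4 and -0.13 in anti-PD-1 and between -1.43 and -0.75 in control. The list summed to 2229 CPM in anti-PD-1 and 1853 CPM in control in the top 1% of tumour cells by the marker sum, and to 5452 CPM in anti-PD-1 and 5390 CPM in control in the lower 50%, so in the few highest cells the libraries lay closer and anti-PD-1 was low too. In the class just below the limit, which holds other tumour cells, the list summed to 4829 CPM in anti-PD-1 and 3857 CPM in control. The libraries thus already differed there, and the difference was not particular to the hypoxic cells. The difference between the libraries itself could not be tested with 1 library each.

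**Figure D5:**
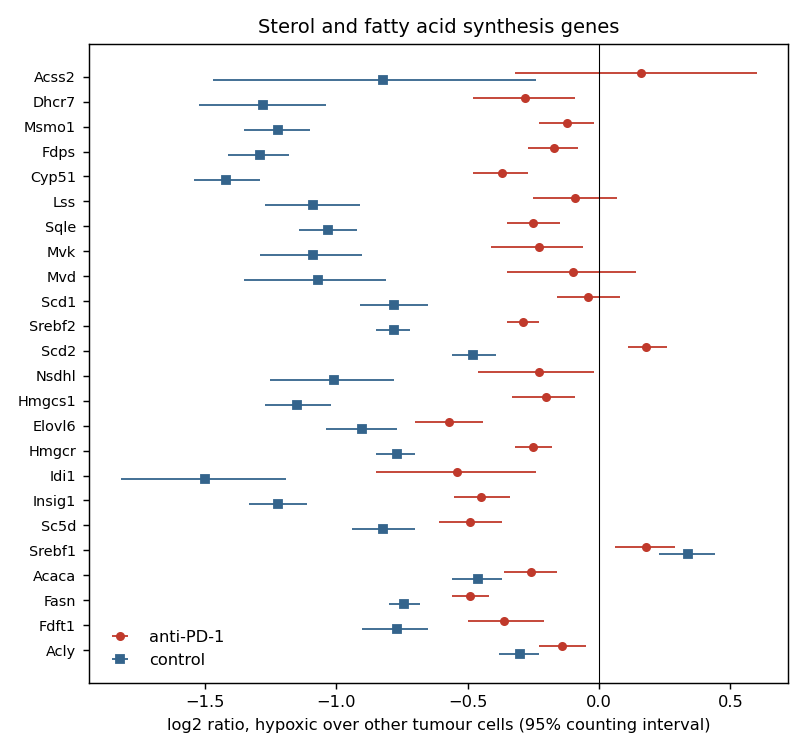
Log2 ratio of hypoxic over other tumour cells (horizontal axis) for sterol and fatty acid synthesis genes (vertical axis), with anti-PD-1 as red circles above control as blue squares; bars are exact 95% counting intervals. Control lies to the left for nearly all genes, as for Cyp51 at -0.37 in anti-PD-1 and -1.42 in control, and Srebf1 lies to the right of 0 in both.

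Amino acid stress genes, targets of the factor ATF4, also split the libraries. In anti-PD-1 23 of 24 lay above the median gene in hypoxic cells and 6 were over 2-fold higher (median log2 ratio 0.47). In control 10 of 24 lay above it and 2 were over 2-fold higher (median -0.13). Trib3, a pseudokinase of this response, stood at 28.2 CPM in hypoxic cells and 8.43 CPM in other tumour cells of anti-PD-1, and at 29.4 CPM in hypoxic cells and 38.6 CPM in other tumour cells of control. Aldh1l2, a mitochondrial folate enzyme, stood at 156 CPM in hypoxic cells and 13.6 CPM in other tumour cells of anti-PD-1 and at 103 CPM in hypoxic cells and 56.4 CPM in other tumour cells of control. Slc7a11 was higher in both, at a log2 ratio of 3.0 in anti-PD-1 and 1.51 in control. The hypoxic cells of the libraries were close, with a median log2 ratio of anti-PD-1 over control of 0.08, and the other tumour cells were the ones that differed, at -0.59. The control median log2 ratio was above 0 in 2 of 19 alternatives and reached 0.18 when the cells were chosen without Adm.

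Interferon gamma genes were lower in anti-PD-1 in hypoxic and other tumour cells alike. The median log2 ratio of anti-PD-1 over control was -0.91 in hypoxic cells, with 12 of 25 over 2-fold lower, and -1.16 in the others, with 15 of 25. Over all measured genes, 0.852% were over 2-fold lower in hypoxic cells and 0.942% in the others. Iigp1, an interferon-induced GTPase, was at 20.9 CPM in hypoxic cells of anti-PD-1 and 87.7 CPM in those of control, and at 27.7 CPM in anti-PD-1 and 132 CPM in control in the others. T cell markers, which are low throughout, were given above.

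The highest named genes of anti-PD-1 over control hypoxic cells included genes that fibroblasts also express. Apod, a lipid carrier, stood at 33.2 CPM in hypoxic cells of anti-PD-1 and 3.9 CPM in those of control. Col6a2, a collagen VI chain, stood at 211 CPM in anti-PD-1 and 72.0 CPM in control. Ptn, the growth factor pleiotrophin, stood at 489 CPM in anti-PD-1 and 167 CPM in control. Cells with leukocyte markers, which also carry more fibroblast signal (8570 CPM), had 2.8 (Apod), 2.65 (Col6a2) and 2.91 (Ptn) times the level of the highest tumour group. Without the cells at 500 CPM of Dcn and Lum the log2 ratios of anti-PD-1 over control were 1.9 for Apod, 1.39 for Col6a2 and 1.21 for Ptn, against 3.09 for Apod, 1.55 for Col6a2 and 1.55 for Ptn with them. Sgk1, a stress-induced kinase, stood at 263 CPM in anti-PD-1 and 95.1 CPM in control in hypoxic cells and was also higher in hypoxic than in other tumour cells of both libraries (log2 ratios 1.91 in anti-PD-1 and 0.94 in control). Ankrd1, an ankyrin-repeat gene, stood at 37.8 CPM in anti-PD-1 and 10.8 CPM in control. For Mmp10, at 37.6 CPM in anti-PD-1 and 9.11 CPM in control, 1 cell held 41.8% of the anti-PD-1 UMIs.

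The lowest named genes included several that belong to other cells. The globin gene Hbb-bs was at 22.3 CPM in hypoxic cells of anti-PD-1 and 185 CPM in those of control, and at 19.8 CPM in anti-PD-1 and 169 CPM in control in the others. The globins thus differed between the libraries in hypoxic and other tumour cells alike. Erythroid markers summed to 63.2 CPM in anti-PD-1 and 478 CPM in control in hypoxic cells. Gzmf and Gzmd, granzymes of killer lymphocytes, had log2 ratios of anti-PD-1 over control of -2.75 for Gzmf and -2.01 for Gzmd in hypoxic cells. In other tumour cells these ratios were -1.89 for Gzmf and -2.04 for Gzmd. Cells with leukocyte markers had 18.0 (Gzmf) and 17.2 (Gzmd) times the level of the highest tumour group. Igfbp3, which binds insulin-like growth factors, was at 8.83 CPM in anti-PD-1 and 75.5 CPM in control and Ccn2, a matrix signal, at 5.37 CPM in anti-PD-1 and 25.9 CPM in control, but 1 control cell held 33.3% of the UMIs of Igfbp3 and 1 held 52.8% of those of Ccn2. In other tumour cells the log2 ratios of anti-PD-1 over control were -1.82 for Igfbp3 and -1.11 for Ccn2. Prl8a9, a prolactin-family gene of the placenta, was at 53.4 CPM in hypoxic cells of anti-PD-1 and 289 CPM in those of control, and at 19.6 CPM in other tumour cells of anti-PD-1 and 21.6 CPM in those of control, with 20.7% of the control UMIs in 1 cell. Il24 was at 3.65 CPM in anti-PD-1 and 28.4 CPM in control, and at 2.81 CPM in anti-PD-1 and 30.4 CPM in control in the others.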

How the data were processed

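The deposited values are raw counts of UMIs for each gene in each barcode, per the file headers. The submitters' processing notes name mm10 and Cell Ranger 7.0.1, while the matrix headers name Cell Ranger 9.0.1. The labels' protocol names a GEM-X Flex kit, which reads RNA through probes, and also a 3' protocol, so levels compared between genes depend on the probes. Of the deposited barcodes 9422 of anti-PD-1 and 8395 of control passed the gene and mitochondrial limits.

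For each group of cells in a library, UMIs were added up, and CPM, log2 ratios and shares were computed from the sums in Python 3.11.15 with numpy 2.4.6, scipy 1.17.1 and pandas 2.3.3; figures were drawn with matplotlib 3.10.9. Intervals are exact Poisson for CPM, exact conditional binomial for ratios and Clopper-Pearson for shares, at 95%; the difference of shares has a Newcombe interval from Wilson score limits. A gene with 0 UMIs in a group was set at 3 UMIs over the group. Called means past 2-fold. Ties at the limit were broken at random with a fixed seed. The steps were tested on simulated counts. The libraries were compared by their sums, since each is 1 sample.

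The members, gene lists and gene-naming rule were chosen with earlier results of these data known. Named genes are the 15 highest and 15 lowest ratios by the library nearer 0 (at least 20 CPM), the 10 highest and 10 lowest anti-PD-1 over control ratios in hypoxic cells (at least 200 UMIs), up to 4 members a list, and a short set of sensing, glycolysis and division genes; other list members named here were chosen after their values were seen. Symbols on several lines of the files and listed genes absent under their symbol, such as Aldoa, Gapdh and Eno1, are not analysed here. The 19 alternatives changed the top percent, depth, marker limits, choosing genes, measured level and scaling; 2 of them were added after seeing the data. Promoter windows are from RefSeq, matched by symbol. A few list members enter the counts and medians but are not reported by name here.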

Additional observations from a re-analysis of the deposited data

Results flagged for a closer look

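For 5 genes of the gene-naming rule the log2 ratio of hypoxic over other tumour cells had opposite signs in the libraries, with counting intervals that left out 0 in both. Others had opposite signs with an interval that held 0, such as Ankrd1 at 1.33 in anti-PD-1 and -0.29 in control (-0.63 to 0.04). List members named after their values were seen, such as Trib3, Hspa5 and Col3a1, also leaned in opposite directions by their levels. The difference between the libraries was not tested, since each group has 1 library. Apod was at 1.35 in anti-PD-1 and -1.03 in control, and at 0.93 in anti-PD-1 and -0.42 in control without the cells at 500 CPM of Dcn and Lum. Col6a2 was at 0.54 in anti-PD-1 and -0.44 in control, and at 0.67 in anti-PD-1 and -0.19 in control without those cells. Its anti-PD-1 ratio fell below 0 under 2 of 17 alternatives, at -0.44 for the top 5% and -0.64 when the cells were chosen without Adm, so that both libraries were then below 0. Ptn was at 0.78 in anti-PD-1 and -0.49 in control, and at 0.61 in anti-PD-1 and -0.42 in control without the cells high in Dcn and Lum. Peg3, an imprinted zinc finger gene, was at 0.47 in anti-PD-1 and -0.49 in control, and at 0.1 in anti-PD-1 and -0.36 in control without them. B2m was at -0.11 in anti-PD-1 and 0.06 in control. Over 17 alternatives the anti-PD-1 ratio was as low as -0.14 for Apod, -0.4 for Ptn and -0.21 for Peg3, while their control ratios stayed below 0, and B2m reached 0.06 in anti-PD-1 and -0.22 in control. Over all measured genes, 19 were past 2-fold in a library with the opposite sign in the other.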

How the results depend on the processing

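With 1 library a group, no library could be left out and no spread between animals was measured; depth limits genes with few UMIs and calls of 0 in single cells. No paired analysis was possible because each group has 1 library. A count moved here means by over 1.5 times, and the cause was not tested except where the setting itself changes how many genes or cells enter. The share difference was negative in all 13 alternatives that left it free, from -7.49 to -2.83 points, and the hypoxia and glycolysis list median stayed above 0 in all 19, from 0.53 to 0.99 in anti-PD-1 and 0.53 to 0.74 in control. In what follows, higher and lower mean genes over 2-fold in hypoxic against other tumour cells, and the last counts compare anti-PD-1 with control within hypoxic cells. For the top 5% the share difference was -2.83 points, with 306 genes higher and 287 lower in anti-PD-1, 139 lower in control, and 112 higher and 165 lower in anti-PD-1 than in control. For the top 20% it was -7.49 points with a list median of 0.53 in anti-PD-1 and of -0.12 for anti-PD-1 over control, 6 genes lower in anti-PD-1, 94 higher and 7 lower in control, and 37 higher and 56 lower between libraries. With the top 10% taken within each library, 29 genes were lower in anti-PD-1 and 84 in control, the list median between libraries was -0.18 and 112 genes were higher. A tumour gene sum of at least 1000 CPM gave -7.27 points and 111 genes lower in anti-PD-1. Without any UMI of C1qa, C1qb or Ptprc, which leaves fewer cells, 300 genes were higher and 315 lower in anti-PD-1, 283 higher and 579 lower in control, and between libraries the list median was 0.11 with 517 higher and 324 lower. Thinning to 5000 UMIs gave 139 lower in anti-PD-1, 125 lower in control, and 164 higher and 154 lower between libraries. Choosing without Adm gave 23 lower in anti-PD-1. Choosing on 50% of the UMIs and measuring on the rest gave list medians of 0.73 in anti-PD-1 and 0.65 in control, and 107 genes higher between libraries; the mean CPM of single cells gave 93. Counting genes from 20 CPM, which tests fewer, gave 114 higher and 29 lower in anti-PD-1, 26 lower in control, and 17 higher and 30 lower between libraries. Counting from 1 CPM, which tests more, gave 300 higher and 166 lower in anti-PD-1, 216 higher and 154 lower in control, and 212 higher and 273 lower between libraries. Of 159 ratios of named genes past 2-fold, 7 took the opposite sign in some alternative, and of 327 within 2-fold 93 did, such as Fn1 in control at -0.15 without immune UMIs. The 7 were these. Mmp10 was at -0.83 in anti-PD-1 and -0.19 between libraries for the top 5%, and at -0.24 in anti-PD-1 chosen without Ndrg1. With the tumour gene sum of at least 1000 CPM, Igfbp3 was at -0.25 and Ccn2 at -0.6 in control. Without immune UMIs Gzmf was at 0.14 in anti-PD-1 and Epas1 at 1.09 between libraries, and Apod was at -0.14 in anti-PD-1 chosen without Adm. Chosen after seeing the data, a minimum of 2000 UMIs gave -5.21 points, with list medians of 0.76 in anti-PD-1 and 0.65 in control, and leaving out cells at 500 CPM of Dcn and Lum gave -5.81 points, with 0.78 in anti-PD-1 and 0.69 in control.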

Other observations

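Genes of protein folding stress and autophagy mostly stayed within 2-fold between hypoxic and other tumour cells, as did most measured genes. Of all measured genes 1.91% were over 2-fold higher in anti-PD-1 and 1.41% in control. Over 2-fold lower were 0.625% in anti-PD-1 and 0.545% in control. Of 19 measured genes of the unfolded protein response, which restores folding in the endoplasmic reticulum, 0 were past 2-fold in either library, and 11 lay below the median gene in anti-PD-1 and 17 in control. The chaperone Hspa5 stood at 1071 CPM in hypoxic cells and 922 CPM in other tumour cells of anti-PD-1, and at 751 CPM in hypoxic cells and 875 CPM in other tumour cells of control. Dnajb9, a chaperone of the same response, was at a log2 ratio of 0.71 in anti-PD-1 and 0.59 in control. Others were lower, with Creld2 at -0.5 in anti-PD-1 and -0.62 in control and Dnajc3 at -0.29 in anti-PD-1 and -0.43 in control. The list median was -0.08 in anti-PD-1 and -0.17 in control. Of 13 heat shock genes, Hspa1b was the one past 2-fold, and Dnajb1, its co-chaperone, stood at 93.9 CPM in hypoxic cells and 51.1 CPM in other tumour cells of anti-PD-1 and at 162 CPM in hypoxic cells and 85.5 CPM in other tumour cells of control. Autophagy and lysosome genes had 0 of 28 past 2-fold in either library, and Atg9b, given above, is not on that list. The autophagy receptor Sqstm1 was at a log2 ratio of 0.44 in anti-PD-1 and 0.91 in control, and the lysosomal enzyme Gusb at -0.62 in anti-PD-1 and -0.72 in control.

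Genes of stimulation, invasion and growth arrest differed gene by gene. Of 21 immediate early genes, 7 were over 2-fold higher in hypoxic cells of anti-PD-1 and 2 in control. Ier3, an early gene of stress, stood at 1063 CPM in hypoxic cells and 213 CPM in other tumour cells of anti-PD-1, and at 1380 CPM in hypoxic cells and 370 CPM in other tumour cells of control. Of 24 genes of invasion, Mmp13, a collagenase, was the one over 2-fold higher in anti-PD-1, and 0 were in control. Over all measured genes the shares higher were 1.91% in anti-PD-1 and 1.41% in control. Cells with leukocyte markers had 6.13 times the Mmp13 level of the highest tumour group. Fn1, the matrix protein fibronectin, was at a log2 ratio of 0.87 in anti-PD-1 and 0.76 in control. Among 14 genes of growth arrest and p53, Gdf15, a stress cytokine, stood at 14.2 CPM in hypoxic cells and 3.9 CPM in other tumour cells of anti-PD-1 and at 10.5 CPM in hypoxic cells and 6.88 CPM in other tumour cells of control, and Ccng1, a p53 target, was at a log2 ratio of -0.81 in anti-PD-1 and -0.41 in control. Type I interferon genes had 0 of 24 past 2-fold in either library, near the small share over all measured genes, with median log2 ratios of 0.04 in anti-PD-1 and 0.17 in control.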
